A study of Mus musculus with 6 samples.

Results

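The genes described here are 49 mouse genes of the presynaptic vesicle release machinery, taken by name from the 52390 genes of the deposited count table. They were chosen by function, as SNARE proteins, synaptotagmins, complexins, synapsins, and proteins of the vesicle membrane and the active zone. Each name matched 1 row, and 49 of 49 passed the filter on low counts. RNA-seq libraries of brain tissue from 3 mice overexpressing *AP1AR-DT*, called *AC109347.1* in the labels (OE mice), were compared with libraries from 3 control mice. *AP1AR-DT* is a human long non-coding RNA linked to bipolar disorder. All mice were male C57BL/6 animals, wild type before treatment, injected in the medial prefrontal cortex at 8 weeks of age. OE mice received an adeno-associated virus that expressed *AP1AR-DT* from the promoter of human synapsin I, a neuronal gene, and control mice received the vector without an insert. The control libraries are numbered 1 to 3 like their mice, and the OE libraries are called A, B and C in the order of their columns, which carry other numbers than the mice. The table lists mouse genes and not this human RNA, and overexpression was not checked here. The time between injection and RNA extraction is not given in the sources used here, and the tissue is given as brain in the labels and as medial prefrontal cortex by the study.

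At a chemical synapse, vesicles filled with transmitter dock at the active zone and are made ready for fusion. Fusion is driven by SNARE proteins, VAMP on the vesicle and syntaxin and SNAP-25 on the plasma membrane, which zip together. Synaptotagmins sense calcium and trigger the process, complexins clamp and assist it, and NSF with its SNAP adaptors takes the spent SNARE complex apart. Bassoon, Piccolo, the RIMs and the ELKS proteins build the active zone, Munc13 proteins prime the vesicles, and synapsins hold the reserve pool. Since these genes are used by most neurons, fewer neurons of a type and less RNA per neuron could not be told apart in this bulk tissue.

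The libraries held between 42061721 and 54668294 counts. Marker genes of brain regions differed between the libraries. *Slc17a7*, the vesicular glutamate transporter of cortical excitatory neurons, ranged from 3.85 normalized CPM (counts relative to the library total, with TMM factors) in control 2 to 463 in OE library B. The cortical gene *Neurod6* was at 0.0803 in control 2 and 0.571 in OE library C. The hypothalamic peptide genes *Avp* and *Oxt* were at 184 and 281 in control 2 and at no more than 18.5 in any other library. *Pmch* and *Hcrt*, from the same list, were instead highest in control 3, at 19.1 and 11.3, against 1.22 and 3.01 in control 2. The summed level of 7 hypothalamic markers was 487 in control 2, 67.8 in control 3 and 3.71 to 8.27 elsewhere. The choroid plexus gene *Ttr* was at 3420 in control 3 and at no more than 5.43 elsewhere. None of the 8 markers of excitatory cortical neurons was at 0 in every library, and their summed level ranged from 1310 to 2350 in control mice and from 1950 to 3470 in OE mice. The summed level of 7 striatal markers ranged from 330 to 1270 and from 794 to 2230, and that of 7 inhibitory neuron markers from 1030 to 2100 and from 1880 to 2150. The summed level of 10 pan-neuronal markers stayed between 4240 and 4740 in all libraries, but single markers moved in both directions. By the DEG thresholds defined below, 2 of the 10 were higher and 1 lower in OE mice, beside 5.1% and 7.15% of all genes. *Map2* had 902 to 1240 in control mice and 784 to 847 in OE mice, and *Eno2* 652 to 805 and 841 to 987. Mitochondrial genes took 7.20% to 9.86% of the counts in control mice and 5.75% to 6.80% in OE mice. The part of these differences in the results was not tested.

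The promoters of 4 members are printed because the results turn on these genes or on the vector. *Stx6* was the most stable change, *Bsn* and *Pclo* encode partner scaffolds that moved in opposite directions, and *Syn1* is the mouse counterpart of the gene whose human promoter drove the transgene. Each stretch runs from 250 bases before the transcription start to 50 after it, in RefSeq coordinates on GRCm38.p6. Capitals mark GCATGCGC or its reverse complement GCGCATGC, letters of the binding motif of NRF1, a transcription factor examined by the study at another promoter.
Stx6, chr1:155158453-155158752, plus strand: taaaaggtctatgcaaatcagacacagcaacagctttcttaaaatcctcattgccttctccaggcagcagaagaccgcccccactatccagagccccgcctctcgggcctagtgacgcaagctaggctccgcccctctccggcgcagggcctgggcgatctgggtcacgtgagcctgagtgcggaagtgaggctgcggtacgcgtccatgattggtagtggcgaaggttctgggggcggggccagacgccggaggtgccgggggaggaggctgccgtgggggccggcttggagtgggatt
Bsn, chr9:108190334-108190633, minus strand: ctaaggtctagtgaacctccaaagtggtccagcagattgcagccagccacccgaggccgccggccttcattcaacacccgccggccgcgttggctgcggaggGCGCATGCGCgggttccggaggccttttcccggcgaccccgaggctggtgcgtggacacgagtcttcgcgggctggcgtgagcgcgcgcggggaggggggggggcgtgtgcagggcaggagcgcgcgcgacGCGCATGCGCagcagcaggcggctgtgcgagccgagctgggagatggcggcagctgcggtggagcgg
Pclo, chr5:14514668-14514967, plus strand: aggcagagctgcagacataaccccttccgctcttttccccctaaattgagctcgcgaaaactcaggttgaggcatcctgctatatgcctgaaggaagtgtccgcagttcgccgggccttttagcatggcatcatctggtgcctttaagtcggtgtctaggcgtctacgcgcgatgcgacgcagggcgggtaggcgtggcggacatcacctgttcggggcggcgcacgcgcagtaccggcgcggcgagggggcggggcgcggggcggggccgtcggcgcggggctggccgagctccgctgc
Syn1, chrX:20920869-20921168, minus strand: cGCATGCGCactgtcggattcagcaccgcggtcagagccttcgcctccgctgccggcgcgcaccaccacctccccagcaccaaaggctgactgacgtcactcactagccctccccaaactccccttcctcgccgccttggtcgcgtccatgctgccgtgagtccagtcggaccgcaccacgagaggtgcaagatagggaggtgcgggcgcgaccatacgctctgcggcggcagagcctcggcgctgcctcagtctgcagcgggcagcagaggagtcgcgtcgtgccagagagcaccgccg

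Motif here means these exact 8 letters or their reverse complement. The *Bsn* promoter held both overlapping at each of 2 places, and *Syn1* held the motif near the far end of the window. *Stx6* and *Pclo* held no exact match. Other forms of the NRF1 motif, such as those the study gives for that other promoter, were not searched for. RefSeq promoters were found for 38 of the 49 members, 48 stretches in all. The motif was in 8 of these 48 (16.7%), from the 7 genes *Snap23*, *Stx12*, *Stx4a*, *Bsn*, *Stxbp5*, *Stx7* and *Syn1*, and in 2.71% of the 32851 promoters in the table. The median GC content of the member stretches was 63.8%, against 52.7% in all. Of the 7 genes with the motif *Bsn* alone passed the DEG thresholds defined below, and the log2 fold changes of the others lay between -0.42 (*Snap23*) and 0.20 (*Syn1*).

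DEGs are genes with an unadjusted edgeR *P* under 0.05 and |Log2FC| above 0.32, the thresholds the study used. By this rule 9 members differed between OE and control mice, 6 higher (*Stx6*, *Bsn*, *Unc13a*, *Syt2*, *Syt12* and *Cplx1*) and 3 lower (*Pclo*, *Syt4* and *Syt10*). This was 18.4% of the members, beside 12.2% of the 21844 genes tested, of which 5.1% were higher and 7.15% lower. The groups did not overlap in 11 members (22.4%), the same share as among all genes (22.4%). OE mice were the higher group in 8 of these (16.3% of the members) and the lower in 3 (6.12%), beside 10.4% and 12% of all genes. The median Log2FC was 0.036 over the members and -0.014 over all genes. By edgeR's test with Benjamini-Hochberg adjustment over all genes, 0 members passed 0.05, and adjusted *P* was 0.295 or above. Of all genes 6 passed (0.0275%). Without adjustment 12 members (24.5%) had *P* under 0.05, beside 15.1% of all genes. With DESeq2 1 member, *Stx6*, passed the adjusted threshold, beside 450 of the 17969 genes to which DESeq2 gave an adjusted *P* (2.5%). In simulated counts, 200 of 21844 genes were given a Log2FC of 1 in size. The adjusted threshold then passed 98 of these and 66 unchanged genes with DESeq2, and 0 and 0 with edgeR. The number of members called was 4 once transcript GC content was corrected for, beside 1569 of all genes (7.18%). It was 4 without control 2 and 15 without control 1, beside 2204 and 3391 of all genes. Without OE library B it was 2 and without OE library C 13, beside 1430 and 3508 of all genes.

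**Figure D1:**
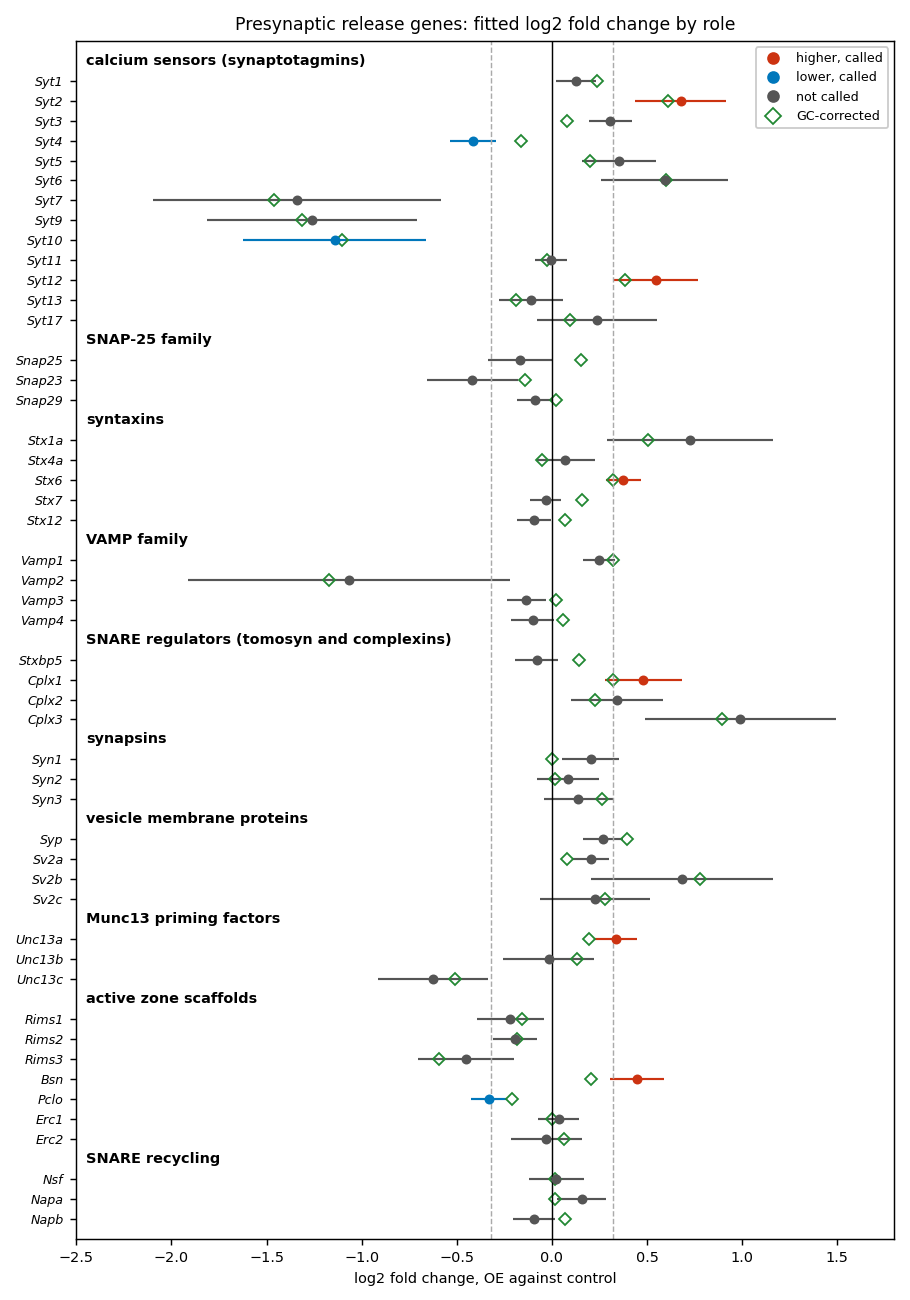
Fitted log2 fold change (horizontal axis, OE against control, bars are standard errors, 3 mice per group) of the 49 members by role, with the value after GC correction as an open diamond. Dashed lines mark 0.32 on either side of 0, red and blue points are the 6 higher and 3 lower members called, and *Vamp2*, *Syt7* and *Syt9* have wide bars and are not called.

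Among the syntaxins, target-membrane SNAREs, 1 of 5 members was called. *Stx6* (ENSMUSG00000026470), a syntaxin of the trans-Golgi network and endosomes, lies at chr1:155158715-155208256 of GRCm38 (plus strand). It had 79.5, 73.2 and 72.6 normalized CPM in controls 1 to 3 and 101, 100.1 and 90.6 in OE libraries A to C. Each OE value was above each control value. The group levels were 75.1 ± 3.86 and 97.4 ± 5.91 (SD, n = 3), a Log2FC of 0.38 ± 0.090 (SE) (edgeR *P* = 0.00407, adjusted *P* = 0.295, exact permutation *P* = 0.1, the smallest that 3 mice against 3 allow). *Stx6* was the one member called in all 15 fits, with a Log2FC from 0.32 to 0.44 and adjusted *P* from 0.0371 to 0.661. *Stx1a*, the neuronal plasma membrane syntaxin, was not called. Its values were 25.8, 28.6 and 49.8 in control mice and 57.6, 88.0 and 26.7 in OE mice, so that OE library C lay among the controls. Its Log2FC was 0.73 ± 0.437 (SE) (edgeR adjusted *P* = 0.45), and it was 1.08 without OE library C, where it was called, 1.09 without control 3 and 0.28 without OE library B. *Stx4a*, *Stx7* and *Stx12*, which serve the plasma membrane and endosomes in many cell types, had Log2FC between -0.094 and 0.071.

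The scaffolds of the active zone moved in both directions. *Bsn* (ENSMUSG00000032589), which encodes Bassoon, lies at chr9:108096022-108190384 (minus strand). It had 209, 196 and 217 normalized CPM in control mice and 283, 336 and 231 in OE mice. The OE values were all higher, and library C came closest to the controls. Its levels were 207 ± 10.8 and 283 ± 52.6 (SD, n = 3), a Log2FC of 0.45 ± 0.142 (SE) (edgeR *P* = 0.0155, adjusted *P* = 0.295, exact permutation *P* = 0.1). *Pclo* (ENSMUSG00000061601), which encodes Piccolo, the large homologue of Bassoon, lies at chr5:14514918-14863459 (plus strand). Its values were 178, 174 and 166 in control mice and 143, 122 and 145 in OE mice. All OE values lay below all control values, with levels of 172 ± 6.24 and 137 ± 12.6 (SD, n = 3). The Log2FC was -0.33 ± 0.096 (SE) (edgeR *P* = 0.0103, adjusted *P* = 0.295, exact permutation *P* = 0.1). Neither gene passed the DEG thresholds after GC correction, where the Log2FC was 0.21 for *Bsn* and -0.21 for *Pclo*. *Bsn* was also not called without OE library B (0.31), and *Pclo* not with length correction (-0.12), without control 1 (-0.31), without control 2 (-0.32) or without OE library B (-0.26). The transcript of *Bsn* has a GC content of 59.8% and that of *Pclo* 45.5%.

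*Rims1*, which links vesicles, calcium channels and Munc13, had 70.4, 63.2 and 97.5 normalized CPM in control mice and 63.4, 73.9 and 61.4 in OE mice, with overlapping groups and a Log2FC of -0.22 (SE 0.174, edgeR adjusted *P* = 0.568). *Rims2* was at a Log2FC of -0.20. *Rims3* was at -0.45 (edgeR adjusted *P* = 0.421), but control 1 had 224 normalized CPM, below all OE libraries, while controls 2 and 3 had 403 and 443. Its Log2FC was -0.70 without control 1, where it was called, and -0.25 without control 3. The ELKS genes *Erc1* and *Erc2* were at 0.036 and -0.029.

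Of the Munc13 genes, which prime docked vesicles, *Unc13a* was called. It encodes the main Munc13 of excitatory synapses and had 169, 139 and 160 normalized CPM in control mice against 199, 213 and 178 in OE mice, without overlap. The levels were 156 ± 15.5 and 197 ± 17.6 (SD, n = 3), a Log2FC of 0.34 ± 0.111 (SE) (edgeR *P* = 0.0192, adjusted *P* = 0.295, exact permutation *P* = 0.1), and the Log2FC was 0.19 after GC correction, where it was not called. It was also not called without control 2 (0.27), OE library A (0.33) or OE library B (0.28). *Unc13b* was at -0.018. *Unc13c*, best known from the cerebellum, was at -0.63 (edgeR adjusted *P* = 0.354), and OE library B held its lowest value, 20.8, against 47.9 to 60.1 in control mice. *Unc13c* was called by DESeq2 (-0.62) and without OE library A (-0.93), and its Log2FC was -0.35 without OE library B.

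Of the 13 synaptotagmins, 2 were higher and 2 lower. *Syt2*, a fast calcium sensor typical of the hindbrain and of inhibitory neurons, had 58.7, 40.7 and 30.9 normalized CPM in control mice and 60.7, 82.1 and 65.6 in OE mice. The groups did not overlap, and control 1 came close to OE library A. Its levels were 43.4 ± 14.1 and 69.5 ± 11.2 (SD, n = 3), a Log2FC of 0.68 ± 0.239 (SE) (edgeR *P* = 0.0249, adjusted *P* = 0.296, exact permutation *P* = 0.1). It was also called after GC correction, at 0.61, but not without control 2 (0.64) or without OE library B (0.54). *Syt4*, a form that binds calcium poorly and sits on dense-core vesicles, had 200.04, 244 and 216 in control mice and 149, 158 and 188 in OE mice. Every OE value was below every control value, with a Log2FC of -0.42 (SE 0.123, edgeR *P* = 0.0114, adjusted *P* = 0.295, exact permutation *P* = 0.1). Its transcript has a GC content of 40.7%, and the Log2FC was -0.16 after GC correction, the one fit of 15 in which it was not called.

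*Syt12*, which does not bind calcium, had 33.5, 24.3 and 20.2 normalized CPM in control mice and 45.8, 37.5 and 30.8 in OE mice. The groups overlapped, since control 1 was above OE library C. Its Log2FC was 0.55 (SE 0.221, edgeR *P* = 0.0416, adjusted *P* = 0.319, exact permutation *P* = 0.2). On either strand, 22.1% of its 100-base stretches (longest transcript) also occur in transcripts of other genes, most of all *A930001C03Rik*. That gene shares 950 exonic bases with *Syt12* on the opposite strand and had 5 to 24 counts in a library, against 1011 to 2431 for *Syt12*. *Syt10*, known from the olfactory bulb, was low, with 4.94, 10.2 and 7.05 in control mice and 2.90, 1.54 and 5.60 in OE mice, and the groups overlapped. Its Log2FC was -1.14 (SE 0.482, edgeR *P* = 0.0491, adjusted *P* = 0.329, exact permutation *P* = 0.2). Neither was called after GC correction or without any 1 of control 2, control 3, OE library A and OE library B, where the Log2FC lay between 0.38 and 0.56 for *Syt12* and between -1.16 and -0.80 for *Syt10*.

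*Syt1*, the principal fast calcium sensor of forebrain synapses, was not called. It had 929, 803 and 838 normalized CPM in control mice and 856, 978 and 971 in OE mice, a Log2FC of 0.13 ± 0.104 (SE) (edgeR adjusted *P* = 0.582). *Syt11*, abundant in neurons and glia, was at -0.0063 (SE 0.084), and all 6 libraries lay between 813 and 873. *Syt3* was higher in each OE mouse than in each control mouse, at a Log2FC of 0.31 (edgeR adjusted *P* = 0.303), which is below the fold threshold. *Syt3* was called without control 1 (0.40) and without OE library C (0.37), and its Log2FC was 0.082 after GC correction. *Syt5*, *Syt6*, *Syt13* and *Syt17* were not called, with Log2FC from -0.11 to 0.59. *Syt7* and *Syt9* turned on single libraries and are described with *Vamp2* below.

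The complexins bind the assembled SNARE complex. *Cplx1*, the form of many inhibitory neurons, had 678, 410 and 643 normalized CPM in control mice and 779, 925 and 712 in OE mice. The groups did not overlap, and control 2 lay well below the rest. Its levels were 577 ± 146 and 805 ± 109 (SD, n = 3), a Log2FC of 0.48 ± 0.204 (SE). Its *P* by edgeR was 0.04999, at the threshold, with an adjusted *P* of 0.33, and it was called in 8 of 15 fits. It was not called after GC correction (0.32), without control 2 (0.29), without OE library A (0.51) or without OE library B (0.37). *Cplx2*, common in excitatory neurons, was at a Log2FC of 0.34 (edgeR adjusted *P* = 0.513). *Cplx3*, a marker of deep cortical subplate neurons, had the highest Log2FC of the members, 0.99 (SE 0.503, edgeR adjusted *P* = 0.388), but its level was between 1.01 and 6.64 normalized CPM and the groups overlapped. *Cplx3* was called by DESeq2 (1.00) and without control 3 (1.44), and its Log2FC was 0.47 without OE library B. *Stxbp5*, tomosyn, which withholds syntaxin from VAMP, was at -0.080.

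**Figure D2:**
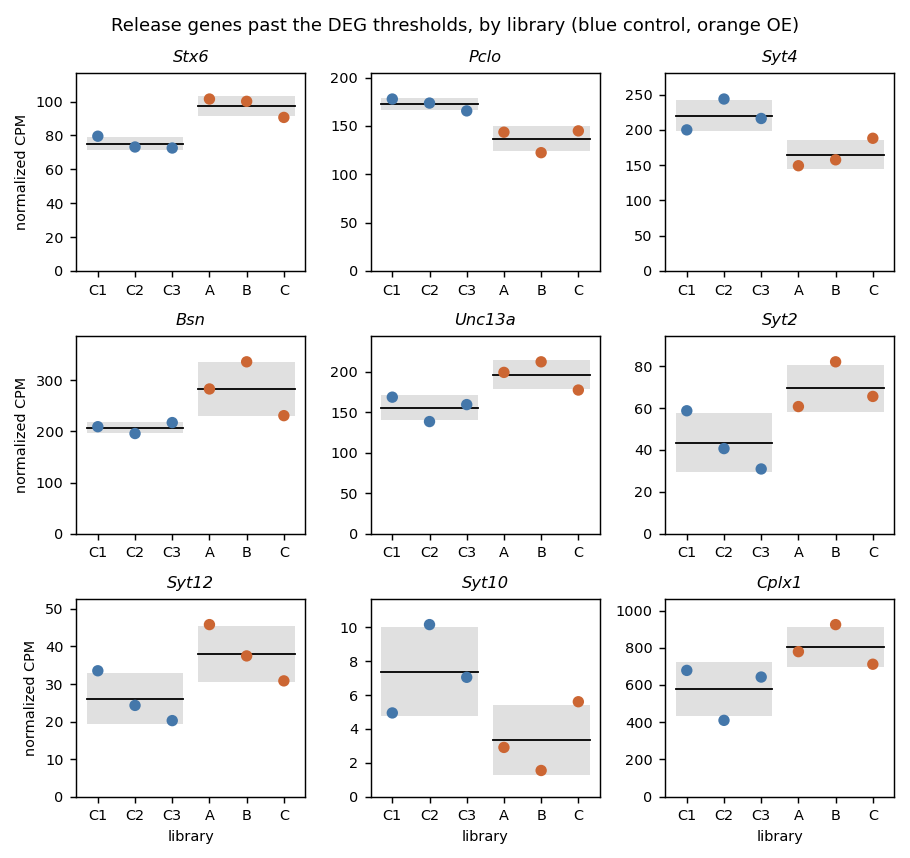
Normalized CPM (vertical axis from 0) of the 9 members called, in each library, with controls 1 to 3 in blue and OE libraries A to C in orange. Lines are group means and grey bands 1 SD, and the groups are apart in *Stx6*, *Pclo*, *Syt4*, *Bsn*, *Unc13a*, *Syt2* and *Cplx1* but overlap in *Syt12* and *Syt10*.

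Of the SNAP-25 family 0 of 3 members were called. *Snap25*, the neuronal SNARE of the plasma membrane, had 860, 694 and 1099 normalized CPM in control mice and 766, 860 and 740 in OE mice, which overlapped. Its Log2FC was -0.17 ± 0.172 (SE) (edgeR adjusted *P* = 0.665). *Snap23*, its relative outside neurons, was at -0.42 (edgeR adjusted *P* = 0.428). *Snap29* was lower in each OE mouse than in each control mouse, but by a Log2FC of only -0.090 (edgeR adjusted *P* = 0.66).

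Of the 3 synapsin genes and the 4 genes of vesicle membrane proteins 0 were called. *Syp*, synaptophysin, an abundant vesicle membrane protein, had 1115, 989 and 1100 normalized CPM in control mice and 1275, 1395 and 1192 in OE mice. The OE values were all higher, with levels of 1068 ± 68.9 and 1288 ± 102 (SD, n = 3). The Log2FC of 0.27 (SE 0.105, edgeR adjusted *P* = 0.312) was below the fold threshold. It was 0.40 after GC correction and 0.34 without OE library C, where *Syp* was called. *Syn1*, synapsin I, had 507, 432 and 519 in control mice and 503, 676 and 498 in OE mice, where library B stood above the other values. Its Log2FC was 0.20 (SE 0.148, edgeR adjusted *P* = 0.531) and 0.00092 after GC correction. *Syn2* and *Syn3* were at 0.084 and 0.14. *Sv2a*, the target of the antiepileptic drug levetiracetam, was at 0.20 (edgeR adjusted *P* = 0.365). *Sv2b*, typical of glutamatergic neurons, was at 0.69 (edgeR adjusted *P* = 0.511), at 1.18 and 1.03, where it was called, without control 3 and without OE library C, and at 0.42 and 0.30 without control 2 and without OE library B. *Sv2c*, typical of the basal ganglia, was at 0.23.

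*Sv2b* and *Slc17a7* shared part of their order of the libraries, and were compared after their values had been seen. *Sv2b* had 78.8, 52.7 and 144 normalized CPM in control mice and 157, 217 and 69.7 in OE mice. *Slc17a7* had 28.2, 3.85 and 233 in control mice and 230, 463 and 87.2 in OE mice. In both, OE library B was highest and control 2 lowest, while OE library C lay below control 3. Control 1 was above OE library C in *Sv2b* but below it in *Slc17a7*. *Stx1a* was also highest in OE library B and low in controls 1 and 2 and OE library C. *Cplx2*, also common in excitatory neurons, had another order. It was highest in OE library A, at 1295, and control 1, at 1111, was above OE library B, at 1048. The part of excitatory neuron content in the values of *Sv2b* and *Stx1a* was not tested.

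NSF and its SNAP adaptors, which disassemble SNARE complexes, were not called. *Nsf* was at a Log2FC of 0.022, *Napa* at 0.16 and *Napb* at -0.094, with SEs of 0.144, 0.13 and 0.111.

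Among the VAMP genes, SNAREs of the vesicle, *Vamp2* (ENSMUSG00000020894) stood apart. It encodes synaptobrevin 2, the main vesicle SNARE of the forebrain, and lies at chr11:69088490-69092384 (plus strand). It had 1234, 961 and 1134 normalized CPM in control mice and 1310, 147 and 132 in OE mice. Library A was the highest of all 6 values, while libraries B and C lay far below every control value. The deposited counts were 69472 in library A and 7918 and 6918 in libraries B and C. The ratio of the highest to the lowest OE value was 9.94, and 36 of 8434 genes with a mean of at least 20 normalized CPM (0.427%) had an OE ratio that large. The Log2FC was -1.07 ± 0.848 (SE) (edgeR adjusted *P* = 0.566). Without library A it was -2.99 (edgeR adjusted *P* = 0.0132), without library B -0.62 and without library C -0.59, and DESeq2 gave no *P* because it treated a count as an outlier.

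Counts this low in libraries B and C alone were rare in the table. Of 12957 genes with over 200 counts in each of the other 4 libraries, 5 had counts over 4 times lower in both, which were *Vamp2*, *Imp4*, *Lims1*, *Bend3* and *Gm42742*. These were chosen after the values of *Vamp2* were seen, and drops in other sets of libraries were not searched for. Among presynaptic genes outside the members, *Syngr1* had 73.1 and 91.0 normalized CPM in OE libraries A and B, against 432 to 538 elsewhere. *Sh3gl2* had 42.5 in control 3 and 32.5 in OE libraries A and C, against 153 to 194 elsewhere. The *Vamp2* neighbour *Per1* had 97.7 and 87.9 normalized CPM in libraries B and C and 53.3 to 89.5 in the other libraries, and *Ctc1* had 35.9 and 32.1 against 26.3 to 31.7. The annotation gives *Vamp2* 5 transcripts and no exon shared with another gene. In annotated transcripts of other genes, 0% of its 100-base stretches (longest transcript) occur, and the rest of the genome was not searched. *Vamp1*, the close relative used at motor synapses and in the hindbrain, was higher in every OE mouse, at 196, 221 and 199 normalized CPM against 175, 176 and 169. Its Log2FC was 0.25 ± 0.084 (SE) (edgeR adjusted *P* = 0.295), below the fold threshold, and 0.32 after GC correction, where it was called. *Vamp3* and *Vamp4*, which serve endosomal traffic, were at -0.13 and -0.10.

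*Syt7*, the calcium sensor of slow and asynchronous release, depended on control 3. It had 49.5, 42.5 and 333 normalized CPM in control mice and 54.7, 55.9 and 57.4 in OE mice, so that OE mice lay between the controls. The Log2FC was -1.34 (SE 0.756, edgeR adjusted *P* = 0.426) with all mice and 0.30, below the fold threshold, without control 3. It was -1.77, where *Syt7* was called, without control 2. Control 3 also held 74.8 normalized CPM of *Syt9*, a fast sensor, against 13.6 and 28.4 in the other controls and 14.1 to 18.8 in OE mice. Its Log2FC was -1.26 (edgeR adjusted *P* = 0.339), and it was -0.36 without control 3 and -1.67, where it was called, without control 1. Control 3 is the library with high choroid plexus markers, its summed level of 7 oligodendrocyte markers was 10900 against 5170 to 6590 elsewhere, and it held 134 normalized CPM of the thalamic gene *Tcf7l2* against 9.75 to 11.2 elsewhere. In 84 of 14263 genes with over 200 counts in control 3 the count there was over 4 times that of every other library. The part of other tissue in the values of *Syt7* and *Syt9* was not tested.

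**Figure D3:**
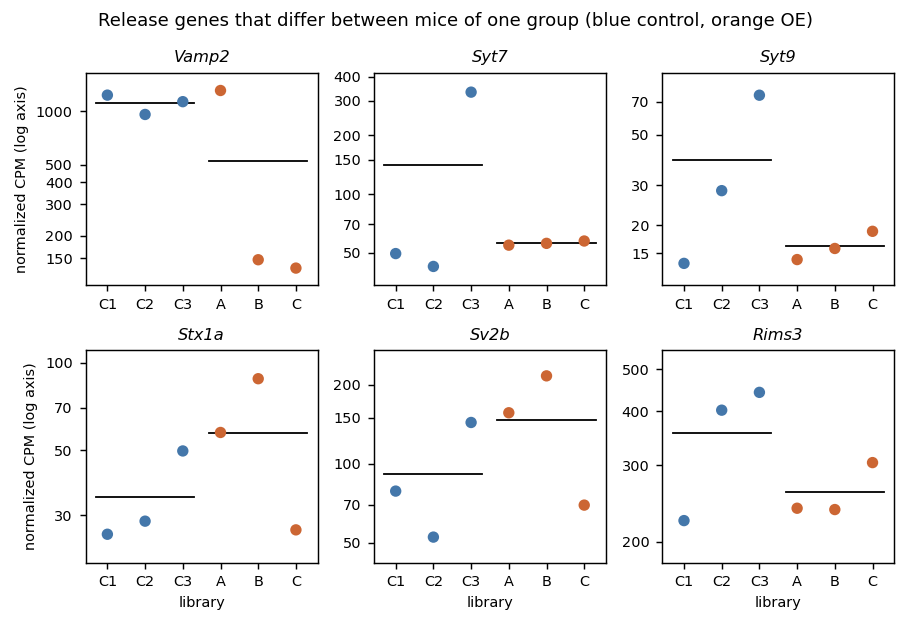
Normalized CPM (vertical log axis) of 6 members that differed between mice of one group, with controls 1 to 3 in blue, OE libraries A to C in orange and lines at the group means. *Vamp2* falls to 147 and 132 in libraries B and C, and *Syt7* is at 333 in control 3 alone.

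The direction of the called members followed the GC content of their longest transcripts. The 6 higher genes had between 51.1% (*Stx6*) and 59.8% (*Bsn*), and the 3 lower genes between 40.7% (*Syt4*) and 47.6% (*Syt10*). Of the 23 members with a GC content of 50% or more, 18 had a positive Log2FC, with a median of 0.24, against 8 of the 26 below 50%, with a median of -0.085. After correction of each library for GC content these medians were 0.082 and 0.066. The correction takes no account of group, so it removes any group difference that follows GC content, whatever its source. It therefore tends to bring such medians together by construction. Across the members the Log2FC and GC content had a Pearson's r of 0.28 and a Spearman's rho of 0.47 (49 genes of the same 6 libraries), and across all genes 0.27 and 0.40 (21817 genes). The median Log2FC of all genes rose from -0.30 in the decile with the lowest GC content to 0.22 in the highest. The correction left *Stx6* and *Syt2* among the 9 genes called and added *Syp* and *Vamp1*, beside 7.18% of all genes called. Whether GC content had a part in these differences beyond this correction was not tested.

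**Figure D4:**
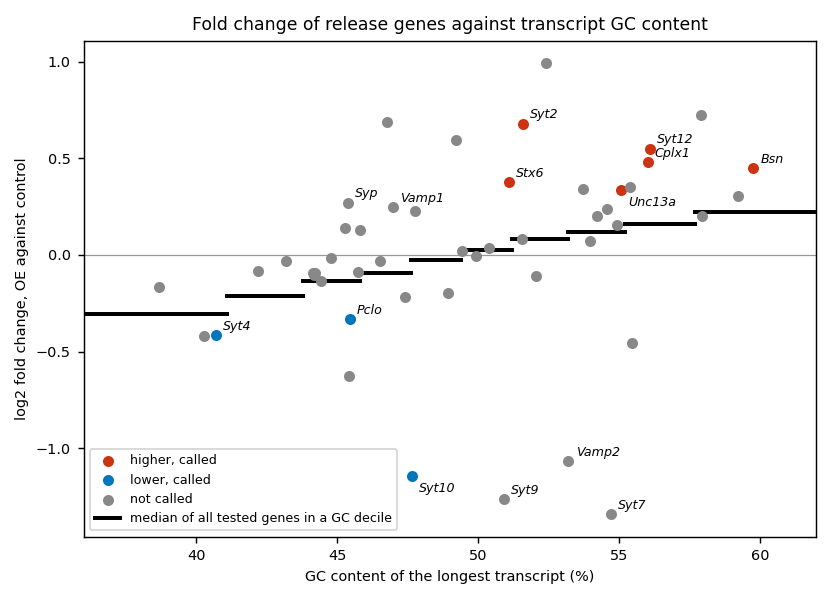
Log2 fold change (vertical axis, OE against control) of the 49 members against the GC content of the longest transcript (horizontal axis, percent), with black bars at the median of all tested genes in each GC decile. The 6 higher members called lie at 51.1% or more and the 3 lower members called at 47.6% or less.

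Compared per kilobase of the longest transcript, the members' levels in control mice spanned from 0.725 normalized CPM per kb for *Cplx3* to 503 for *Vamp2*. *Syp* followed at 376 and *Cplx1* at 264. *Snap25*, *Syt1*, *Cplx2* and *Syt11* came next at 181, 178, 171 and 168, and these 4 were closer to each other than the spread between mice of *Snap25* and *Cplx2*. In OE mice *Syp* was at 453 and *Cplx1* at 368, while *Vamp2* has no single place in the order because its OE libraries differed up to 9.94 times. The scaffolds were lower, with *Bsn* at 13.0 and *Pclo* at 8.58 per kb in control mice, and *Bsn* at 17.8 and *Pclo* at 6.81 in OE mice. The longest transcript need not be the one expressed.

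Some release genes share exons with a gene on the other strand, and without strand their reads could not be told apart. *Syn3* shares 1733 exonic bases with *Timp3*, an inhibitor of matrix proteases. *Syn3* had between 309 and 494 counts in a library and *Timp3* between 7924 and 13757. *Syp* shares 875 exonic bases with the antisense gene *Gm14703*, which had 380 to 451 counts in control mice and 475 to 693 in OE mice. *Unc13a* shares 495 exonic bases with *Colgalt1*, which had 1448 to 1609 counts in control mice and 2091 to 2394 in OE mice. *Syt4* shares 566 exonic bases with the antisense gene *Gm26658*, which had 51 to 103 counts in control mice and 45 to 60 in OE mice. How the counting divided such reads was not tested.

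A list of 101 other presynaptic genes, taken by function, was read from the same fit. Of these 98 were tested, 7 were higher and 10 lower, which was 17.3% beside 12.2% of all genes, and the median Log2FC was -0.0066. Of all genes 5.1% were higher and 7.15% lower. Among the other SNAREs and their partners, 4 of 23 were lower and 0 higher, and among the other calcium sensors and priming factors 0 of 11 were called. The other vesicle proteins held 3 higher and 2 lower, the other active zone genes 2 and 2, and the genes of vesicle endocytosis 2 and 2. *Rims4*, the short RIM related to *Rims3*, went from 60.9 ± 7.20 to 90.7 ± 13.7 normalized CPM (SD, n = 3), a Log2FC of 0.57 (edgeR adjusted *P* = 0.295). *Tspoap1*, a RIM-binding protein, was at 0.57 as well, from 89.6 ± 9.42 to 133 ± 22.2 (SD, n = 3). *Pacsin1*, an endocytic protein, was at 0.39, *Svop*, a transporter-like vesicle protein, at 0.49, and *Scamp5*, a vesicle membrane protein, at 0.33. The lower genes with the smallest *P* were *Stxbp5l*, the second tomosyn, at -0.67, *Lin7c*, an adaptor, at -0.43, and *Stxbp4* at -0.59. After GC correction 7 of the 98 were called, a share close to the 7.18% of all genes. Among the 7 were *Rims4* (0.40) and *Tspoap1* (0.36), higher, and *Stxbp5l* (-0.50) and *Stxbp4* (-0.45), lower. *Pacsin1*, *Svop*, *Scamp5* and *Lin7c* were then not called, at 0.20, 0.29, 0.21 and -0.098. By edgeR's adjusted *P* 0 of the 98 passed 0.05, and 22 (22.4%) had an unadjusted *P* under 0.05, beside 15.1% of all genes.

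**Figure D5:**
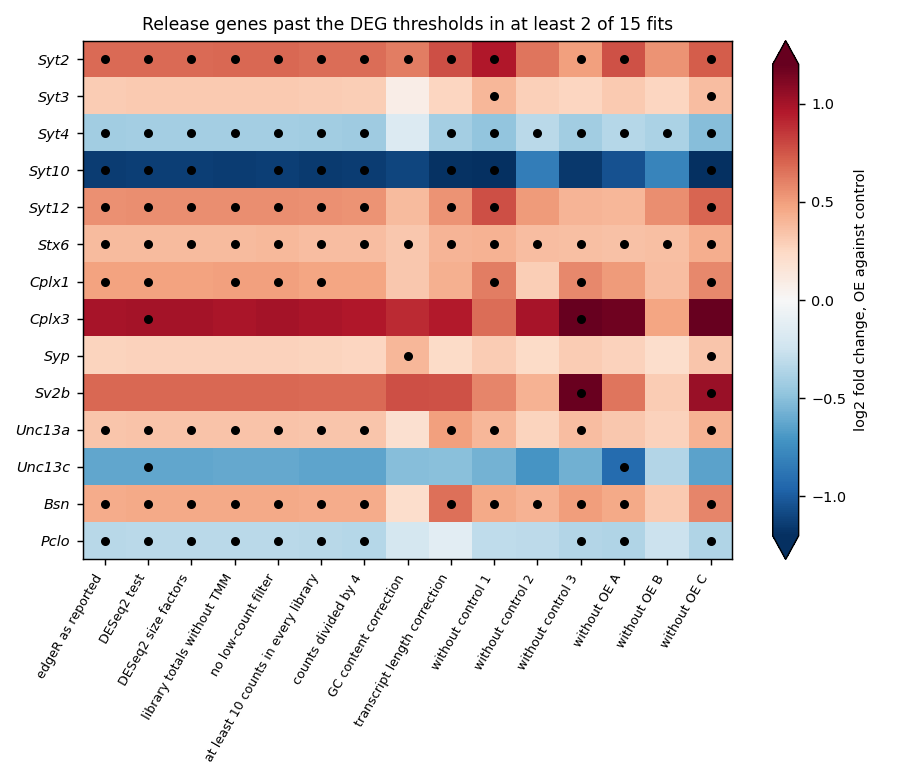
Log2 fold change (color, OE against control, values beyond 1.2 in size shown at the end of the scale) of the members called in at least 2 of 15 fits (rows), under each fit (columns), with black dots where the gene passed the DEG thresholds. *Stx6* has a dot in every column, and *Syt4* in every column except GC content correction.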

How the data were processed

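RNA-seq of brain tissue from 3 control and 3 OE mice was read from 1 table. According to the methods of the study, reads were mapped to GRCm38 with Bowtie2, which does not split reads at introns, and StringTie's script turned coverage of GENCODE genes into whole-number counts, deposited by the authors as they were. The submitters' processing notes list other tools (TopHat2 2.0.4, edgeR 2.6.12) and mm9. Use of strand is not given in the sources used here. Low counts were most frequent at 4, so 1 read pair may give several counts. The table also holds the authors' own DESeq2 comparison (mean normalized count, log2 fold change, its standard error, test statistic, P-value and adjusted P-value), which was not used.

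Counts were tested in R 4.3.3 with edgeR 4.0.16 (filterByExpr, TMM, quasi-likelihood, two-sided, Benjamini-Hochberg over 21844 genes), all 6 libraries, no covariate. Precision rests on 3 mice per group, with a common biological coefficient of variation of 0.313. The labels name separate mice. Exact permutation tests used log2 of normalized CPM plus 0.5. Gene coordinates, exons, GC content and length are from GENCODE vM21 on GRCm38, and the longest transcript of each gene was used. Alternatives were DESeq2 1.42.0, its size factors, library totals, no filter, at least 10 counts in every library, counts divided by 4, GC or length curves (splines with 5 degrees of freedom) as offsets, and leaving out each mouse. Scripts were tested on simulated data. Figures used matplotlib 3.10.9.

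The members and lists were chosen with earlier results of these data known. Named with values are the members called, 10 core genes (*Snap25*, *Syt1*, *Vamp2*, *Stx1a*, *Cplx1*, *Syn1*, *Syp*, *Unc13a*, *Rims1*, *Bsn*), and the 8 called genes of the wider list with the smallest *P*. *Vamp1*, *Syt3*, *Syt7*, *Syt9*, *Sv2b*, *Cplx2* and *Rims3*, the marker genes and the genes compared with *Vamp2* were given more values after these had been seen.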

Additional observations from a re-analysis of the deposited data

How the results depend on the processing

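The number of members called moved by over 1.5 times with GC correction, to 4, and ranged from 2 to 15 over the fits leaving out 1 mouse, with 2 without OE library B, 4 without control 2 and 15 without control 1. Among all genes it was 1569 with GC correction and between 1430 and 3508 without 1 mouse, and in the wider presynaptic list 7 and between 9 and 31. The median of the members was between -0.032 and 0.12 without 1 mouse. DESeq2, its size factors, library totals, both filters, counts divided by 4 and length correction gave between 7 and 11 members. Of 686 refits of single members, 594 kept direction and call, 32 lost a call, 20 gained one and 40 changed sign, and the sign changes were in members that were not called. Of the 9 called, 7 lost the call with GC correction, 7 without OE library B, 6 without control 2 and 4 without OE library A. The causes were not tested.

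With GC correction the Log2FC became 0.15 for *Snap25*, 0.024 for *Snap29*, -0.052 for *Stx4a*, 0.16 for *Stx7*, 0.068 for *Stx12*, 0.021 for *Vamp3*, 0.058 for *Vamp4*, 0.14 for *Stxbp5*, 0.13 for *Unc13b*, 0.064 for *Erc2* and 0.071 for *Napb*. With length correction it became 0.044 for *Syt11*, 0.056 for *Stxbp5*, 0.18 for *Unc13b* and 0.061 for *Erc2*. *Syt11* was at 0.00022 with DESeq2 and with its size factors, and at 0.0030 without a filter. Leaving out 1 mouse gave ranges across 0 for *Syt7* (-1.77 to 0.30), *Syt11* (-0.021 to 0.028), *Syt13* (-0.25 to 0.071), *Syt17* (-0.032 to 0.55), *Snap25* (-0.31 to 0.033), *Stx7* (-0.049 to 0.0095), *Stxbp5* (-0.16 to 0.028), *Syn2* (-0.020 to 0.24), *Sv2c* (-0.015 to 0.54), *Unc13b* (-0.21 to 0.26), *Rims1* (-0.33 to 0.00054), *Erc1* (-0.035 to 0.11), *Erc2* (-0.17 to 0.13), *Nsf* (-0.069 to 0.17) and *Napb* (-0.16 to 0.024).

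No paired analysis was possible, since the sources used here describe no pairing of these mice. The control mice are numbered 1 to 3 and the OE mice 3 to 5, and the OE columns carry other numbers. The lowly expressed *Cplx3* and *Syt10* had SEs of 0.503 and 0.482.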
